A study of Homo sapiens with 18 samples.

Results

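In sgControl U937 cells, 338 narrow H3K9me3 domains were found among the 25943 autosomal domains of replicate 1. A domain was taken when it lay on chromosomes 1 to 22, spanned at most 8000 bp and overlapped, by at least 1 bp, a replicate 2 domain that also spanned at most 8000 bp. The limit of 8000 bp was met by 1709 domains in replicate 1 and by 1091 in replicate 2. The domains were thus chosen by the H3K9me3 calls and widths of both sgControl libraries, and every value against those libraries is given as a description without a test. The 338 domains summed to 2.02 Mb, or 0.0702% of the autosomal length. Their median width was 6399 bp, 63 of them had the greatest width the rule allows (7999 bp), and 7 spanned a single window of 799 bp. Widths are end minus start on a grid of 800 bp windows.

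U937 is an established human acute myeloid leukaemia (AML) cell line. The lines carried a control guide (sgControl), a knockout of SUV39H1 (SKO) or knockouts of SUV39H1 and SUV39H2 (DKO). H3K9me3 and H3K27me3 were each profiled by chromatin immunoprecipitation and sequencing (ChIP-seq) in 2 libraries per line, and SETDB1 in 2 libraries of wild-type (WT) U937 cells. No treatment or time course is named for these samples, and no source used here says whether a line was a clone or a pool.

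H3K9me3 is a histone mark of constitutive heterochromatin. SUV39H1 and SUV39H2 write it over long stretches around centromeres and in gene-poor regions, where HP1 proteins bind the mark and further enzyme is drawn in, so that it can spread. SETDB1 is a separate H3K9 methyltransferase that acts at focal sites, many of them retrotransposons, to which it is brought by KRAB zinc finger proteins through TRIM28. H3K27me3 is the mark of Polycomb repressive complex 2, which silences developmental genes.

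Reads inside H3K9me3 domains ranged from 16.1 M (mega) in DKO replicate 2 to 23.3 M in sgControl replicate 1, and those inside H3K27me3 domains from 45.5 to 67.6 M. The H3K9me3 domains covered 34.7% and 35.8% of the autosomes in sgControl and 25.6% to 26.9% in the knockouts. The SETDB1 lists held 22879 and 23773 autosomal peaks, of which 12032 in replicate 1 overlapped a replicate 2 peak and are called shared peaks here. The lists carry no spike-in factor, so they show where a domain was called and not how much of the mark there was. They hold no measurement that could check the knockouts.

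The only sequences of the narrow domains at hand are those that RefSeq gives for genes inside them, and 8 of the 338 contained the start of a gene. The promoters of NID1, which encodes the basement membrane protein nidogen, and of ACYP2, which encodes an acylphosphatase, are shown because the former has the most CG dinucleotides of the 8 and the latter lies in a domain that differed between SKO and DKO. They are printed from 250 bases before to 50 after the gene start (RefSeq, GRCh38.p14) with every CG in capitals. The letters CG read the same on both strands.

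NID1 promoter, chr1:236065041-236065340, minus strand: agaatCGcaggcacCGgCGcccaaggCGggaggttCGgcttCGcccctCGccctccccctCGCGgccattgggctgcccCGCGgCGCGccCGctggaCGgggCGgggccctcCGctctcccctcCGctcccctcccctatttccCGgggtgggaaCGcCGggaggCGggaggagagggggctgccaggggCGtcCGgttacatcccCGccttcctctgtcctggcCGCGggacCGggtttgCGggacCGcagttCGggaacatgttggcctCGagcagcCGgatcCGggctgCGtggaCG

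ACYP2 promoter, chr2:54123033-54123332, plus strand: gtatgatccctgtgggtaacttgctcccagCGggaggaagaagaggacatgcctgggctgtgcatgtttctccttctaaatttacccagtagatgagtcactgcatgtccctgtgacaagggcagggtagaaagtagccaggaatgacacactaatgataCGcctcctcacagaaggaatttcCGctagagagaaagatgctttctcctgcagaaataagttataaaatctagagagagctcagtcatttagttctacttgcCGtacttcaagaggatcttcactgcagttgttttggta

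The NID1 promoter holds 36 CG dinucleotides and the ACYP2 promoter 4. Of the 8 promoters, 1 had 10 or more CG, against 56.3% of the 33725 autosomal promoters of the same length. The median was 3 CG in the 8 and 14 over all. The other 6 belonged to RAB7B, SMYD3-AS1, FTO-IT1, LOC105370921, LOC100271832 and LOC124900812, each with 0 to 4 CG. The 2 narrow domains that touched a microRNA gene are shown by the mature sequences, with the seed (bases 2 to 8) in capitals.

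hsa-miR-548ac, within CD58, chr1:116560038-116560059, minus strand: cAAAAACCggcaauuacuuuug

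hsa-miR-5692c, chr7:97964408-97964429, minus strand: aAUAAUAUcacaguagguguac

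These seeds differ, and the domains over them fared differently. The domain over the CD58 locus, which encodes a cell adhesion protein bound by T cells, was 7999 bp wide in both sgControl libraries. It was 27199 and 20799 bp wide in SKO and 11999 and 19199 bp in DKO. The domain over the genes MIR5692C2 and MIR5692A1 and the olfactory receptor pseudogene OR7E38P was also 7999 bp in both sgControl libraries. It was 5599 and 7199 bp wide in SKO and was absent from both DKO libraries.

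Most narrow domains were still called in the knockouts, and most of those present were wider than in sgControl. A narrow domain was counted as present when any domain of the library overlapped it, and the widest overlapping domain gave its width. In SKO, 304 (89.9%) and 300 (88.8%) were present in replicates 1 and 2, a mean of 89.3% ± 0.837 (SD, n = 2). In DKO, 293 (86.7%) and 283 (83.7%) were present, a mean of 85.2% ± 2.09 (SD, n = 2). Among sgControl domains of 8 to 40 kb in both replicates, the mean share present was 59.8% ± 1.57 in SKO and 60.1% ± 3.05 in DKO (SD, n = 2). For those of 40 to 100 kb it was 78.3% in SKO and 81.6% in DKO. For those over 100 kb it was 93.1% and 94.9%, above the narrow domains.

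In all, 273 narrow domains (80.8%) were present in all 4 knockout libraries, 41 in 1 to 3 of them and 24 (7.10%) in none, against 54% in all 4 and 20.1% in none of all 21486 replicated sgControl domains. Absence from both libraries was seen for 31 narrow domains (9.17%) in SKO, against 28.7% of all replicated domains. In DKO it was seen for 40 (11.8%), against 26.2%. The part of a domain lying inside a knockout domain, its covered share, was on average 86.4% ± 0.399 in SKO and 81.2% ± 0.678 in DKO (SD, n = 2). It was 47.7% and 46.3% for domains of 8 to 40 kb, 57.4% and 58.1% for those of 40 to 100 kb, and 70.5% and 74.6% for those over 100 kb. A lower covered share was called where every knockout library lay below every sgControl library by 25 percentage points or more. This held for 35 narrow domains (10.4%) in SKO, against 40.8% of all replicated domains, and for 43 (12.7%) in DKO, against 41%. Since the rule fixed the domains in sgControl, nothing is read from these shares.

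**Figure D1:**
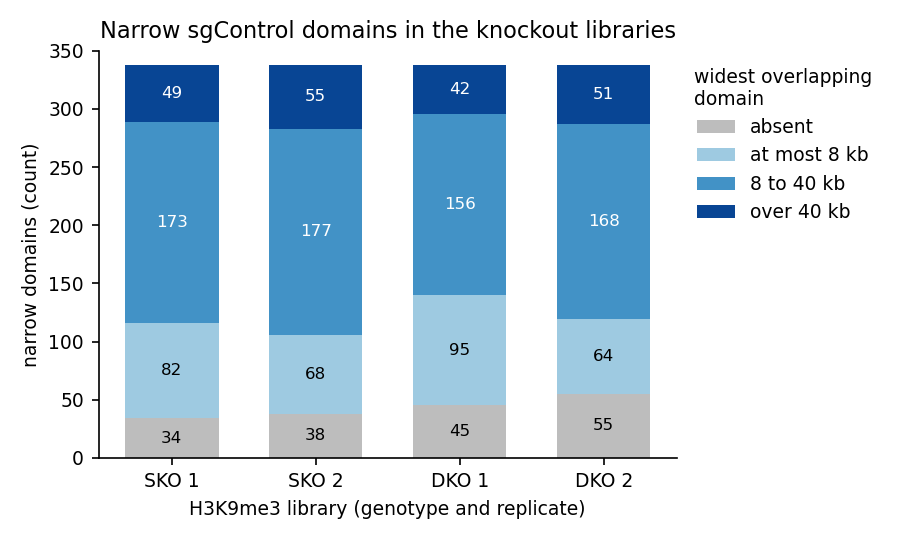
Number of the 338 narrow sgControl domains (vertical axis) by the width of the widest domain overlapping them in each knockout H3K9me3 library (horizontal axis, stacked shades). Absent domains number 34 to 55, and domains over 8 kb number 198 to 232 in every library.

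Beyond persisting, most narrow domains were wider. A domain over 8 kb overlapped 222 (65.7%) and 232 (68.6%) of them in SKO, and 198 (58.6%) and 219 (64.8%) in DKO. The median width of those present was 12799 and 13599 bp in SKO and 12799 and 14399 bp in DKO, against 6399 bp in both sgControl libraries. Growth past 8 kb in both libraries of a line was seen for 199 (58.9%) in SKO and 173 (51.2%) in DKO, and in all 4 libraries for 152. With a width limit of 16000 bp in the choice, which gave 2380 domains, the shares grown past that limit in both libraries were 33.5% and 28.7%. A domain over 40 kb overlapped 28 in all 4 libraries, and 21 were present at 8 kb or less in all 4.

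The knockout domain was wider than both sgControl domains in both SKO libraries for 240 narrow domains (71.0%), against 20.4% of all replicated domains. In DKO this held for 212 (62.7%), against 19.2%. The opposite, a domain still present and narrower than in both sgControl libraries, held for 4 in SKO, where the background was 15%, and for 3 in DKO, where it was 16.2%. A domain chosen for being narrow has more room to be wider elsewhere, so these counts are a description of the choice as well as of the knockouts.

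Domains just inside and just outside the width limit were set side by side. The 63 narrow domains of 7999 bp were present in 92.1% and 85.7% (SKO) and 85.7% and 81.0% (DKO) of cases. For 55 domains of 8799 bp, 1 window outside the limit, the shares were 85.5%, 85.5%, 81.8% and 74.5%. A domain over 8 kb overlapped 82.5%, 73.0%, 61.9% and 71.4% of the former, and 76.4%, 76.4%, 70.9% and 69.1% of the latter.

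The called domains mostly extended beyond the narrow domain in both directions. Read density of the overlapping domains also differed, in reads not scaled for depth. Its median was 28.75 and 23.6 reads per kb in sgControl, 39.6 and 36.9 in SKO and 35.2 and 28.1 in DKO. The part of read density in the called width was not tested. Of the domains that had grown past 8 kb, 76.3% to 79.9% extended beyond both edges, and the median extension on either side was 4000 to 5600 bp. In each library, 69.7% to 73.7% of the grown domains held a single sgControl replicate 1 domain. The other 26.3% to 30.3% joined several, at most 12 in SKO replicate 1. The median share of a grown domain that lay outside every sgControl domain was 45.2% to 50.0%. Few narrow domains ended in the same knockout domain, since 304 present in SKO replicate 1 lay in 301 distinct domains and 283 in DKO replicate 2 lay in 280.

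Distance to the next sgControl domain differed with the fate. The median was 37.6 kb over all 338 and 7.60 kb for the 28 over 40 kb in all 4 knockout libraries. It was 185 kb for the 21 that stayed at 8 kb or less and 16.4 kb for the 24 that were absent from all 4. At the median, the narrow domains that became very wide lay nearer to other control domains than those that stayed narrow.

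The 6 narrow domains that were widest in all knockout libraries, ranked by the narrowest of their 4 knockout widths, lay at the following loci. First was MIR3681HG, a long non-coding RNA gene on chromosome 2, where a domain from 12052801 to 12055199 was 2399 and 3999 bp wide in sgControl. The domain there was 691199 and 655199 bp wide in SKO and 272799 and 533599 bp in DKO. All 4 knockout values were far above both control values. The narrow domain over LAMP5-AS1 on chromosome 20, next to the gene of a lysosome-associated membrane protein, went from 6399 and 7199 bp to 532799 and 120799 bp in SKO and 1122399 and 994399 bp in DKO. Inside MCTP2, which encodes a calcium-binding transmembrane protein, it went from 7199 bp in both to 202399 and 226399 bp in SKO and to 159999 and 158399 bp in DKO. Inside FAF1, a gene of an apoptosis-associated adaptor, it went from 6399 and 7199 bp to 163999 and 151199 bp, and to 171999 and 159999 bp. Inside NTPCR, a nucleoside triphosphatase gene, the knockout widths were 187999, 240799, 108799 and 151199 bp, from 7199 and 6399 bp. At a long non-coding RNA locus on chromosome 15 from 81663201 to 81668799, 289 kb from TMC3, they were 327199, 263999, 287199 and 317599 bp, from 5599 and 7199 bp. The SKO and DKO libraries overlapped in width at the chromosome 15 locus and FAF1. At MIR3681HG, MCTP2, NTPCR and LAMP5-AS1 they did not. Much of this width lay inside other sgControl domains. The share of the knockout domain outside every sgControl domain was 8.57% to 13.2% at MIR3681HG and 1.21% to 11.3% at LAMP5-AS1. At the chromosome 15 locus it was 3.03% to 6.30% and at FAF1 6.50% to 7.94%. It was larger at MCTP2 (39.1% to 47.0%) and NTPCR (25.4% to 33.1%). The MIR3681HG domain of SKO replicate 1 overlapped 12 sgControl replicate 1 domains.

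The narrow domains that did not grow included very small ones with dense reads. The 11 narrow domains of at most 2 windows had a median of 166 reads per kb in sgControl replicate 1, against 28.3 in the other 327, and the highest was 841. Of the 11, 7 lay more than 500 kb from any protein-coding gene. The domains chr12:35614401-35615199, chr17:25920001-25920799 and chr17:26603201-26604799 had the same width in all 6 H3K9me3 libraries (799, 799 and 1599 bp). Each carried a SETDB1 peak with the score 1000 in both WT libraries. No source used here says how reads that match several places were treated, so these values are uncertain. On chromosome 1 from 143214401 to 143215199 a domain of 799 bp in both sgControl libraries was 2399 and 6399 bp wide in SKO and 799 bp in both DKO libraries. A 799 bp domain on chromosome 8 near LOC101929601, 1599 bp in sgControl replicate 2, measured 1599 to 2399 bp in the knockouts and had SETDB1 scores of 868 and 696. Of the larger domains that stayed narrow, 1 lay 10.4 kb from KLRD1, which encodes the natural killer cell receptor CD94. It was 4799 bp wide in both sgControl libraries and 6399 bp in all 4 knockout libraries.

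Among the 24 narrow domains absent from all 4 knockout libraries, the highest scores in the authors' list for sgControl replicate 1 belonged to a domain in GALNT9, a gene of mucin-type glycosylation, and to 5 outside protein-coding genes. The GALNT9 domain on chromosome 12 from 132224801 to 132229599 was 4799 and 3199 bp wide in sgControl. A domain of 2399 bp in both lay on chromosome 14, 38.6 kb from TMEM121. A domain of 3199 bp in both lay in SLC26A9-AS1 on chromosome 1, 0.740 kb from RAB7B, a gene of late endosomal transport. On chromosome 18 a domain of 7999 bp in both lay 237 kb from HRH4, which encodes a histamine receptor. The remaining 2, chr1:123195201-123195999 and chr13:17337601-17340799, lay 1732 and 1833 kb from the nearest protein-coding gene.

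The growth was set beside the reverse choice, in which domains narrow in both libraries of a knockout were looked up in sgControl. By the same rule 1252 narrow domains were found in SKO and 1028 in DKO. Of the SKO ones, 21.96% and 17.7% were present in sgControl replicates 1 and 2, and 12.9% and 12.1% were overlapped there by a domain over 8 kb. Of the DKO ones, 27.1% and 22.96% were present, and 16.8% and 16.0% were overlapped by a domain over 8 kb. Most domains narrow in the knockouts thus had no counterpart in sgControl, while most domains narrow in sgControl had one in the knockouts. Only 49 SKO and 43 DKO narrow domains overlapped a narrow sgControl domain. This lookup uses the sgControl libraries of the rule and was given no test.

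**Figure D2:**
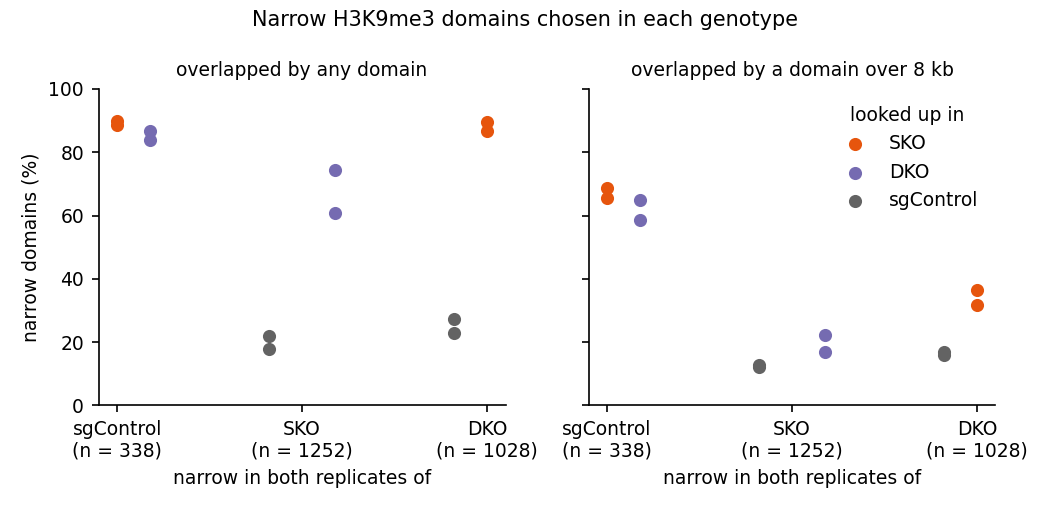
Share of narrow domains (vertical axis, percent) found in both replicates of each genotype (horizontal axis) that any domain (left) or a domain over 8 kb (right) overlapped in the libraries of the other genotypes, 1 point per library. The 338 sgControl domains sit between 83.7% and 89.9% on the left, and the SKO and DKO domains looked up in sgControl sit between 17.7% and 27.1%.

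The rule did not use the SKO and DKO libraries, so these were compared directly. The share of narrow domains present was 4.14 percentage points lower in DKO (-4.14, exact two-sided permutation test over 6 assignments, p = 0.333), and both DKO libraries lay below both SKO libraries. That is the smallest p an exact test of 2 libraries against 2 can give. The mean covered share differed by -5.22 points and the share overlapped by a domain over 8 kb by -5.47 points, each at that same smallest p. DKO replicate 2, with the lowest share present, also had the fewest reads inside domains, 16.1 M. The part of depth in this difference was not tested.

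By domain, the covered share was higher in DKO than in SKO for 2 narrow domains (0.592%), against 5.32% of all replicated domains, and lower for 16 (4.73%), against 6.03%. A higher call needs room to rise, and 258 and 264 of the 338 were already fully covered in SKO replicates 1 and 2. Nothing is read from the low count of higher calls. Width was greater in both DKO libraries than in either SKO library for 36 (10.7%), against a background of 17.3%. It was smaller for 86 (25.4%), against 19.3%. The share that was narrower in DKO (exact binomial 95% interval 20.9% to 30.4%, counting error only) lay above its background. The share that was wider (7.57% to 14.4%) lay below it, while the lower covered share was near its own. Being narrower in DKO asks for presence in both SKO libraries. That held for 297 narrow domains (87.9%), while 28.7% of all replicated domains were absent from both SKO libraries. The bases thus differ. The intervals count domains, which are not replicates of a line. Nothing is read from the excess of narrower domains or from the lower share of wider ones. Presence in both SKO libraries with absence from both DKO libraries was seen for 11 narrow domains (3.25%), close to its background of 3.32%, and the opposite for 2 (0.592%), against 3.65%. The opposite case asks for absence from both SKO libraries, which held for 31 narrow domains (9.17%), against 28.7%, so its base differs too. Wider than both sgControl libraries in both libraries of one knockout and below them in both of the other were 5 (1.48%), against 2.85%.

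Of those 11, DAB1 and the microRNA locus printed above were among the 4 with the highest score. DAB1 encodes an adaptor of reelin signalling. The narrow domain in it was 7199 bp in both sgControl libraries, 11999 and 10399 bp in SKO and absent from both DKO libraries. The domain over the ACYP2 promoter printed above was 6399 and 7199 bp wide in sgControl, 7999 and 8799 bp in SKO and absent from both DKO libraries. A further case on chromosome 3 from 91352801 to 91360799 was 7999 and 6399 bp in sgControl, 3999 and 4799 bp in SKO and absent from DKO. On chromosome 21 from 8420001 to 8420799, a domain of 799 bp in both sgControl and both SKO libraries was absent from DKO. The 2 opposite cases were a domain 255 kb from PID1, an adaptor gene of insulin signalling, and one on chromosome 13, 151 kb from LOC107983958. The first was 5599 and 7199 bp wide in sgControl, absent from SKO, and 19199 and 18399 bp wide in DKO. The second was 3999 bp in both sgControl libraries, absent from SKO, and 3999 and 3199 bp in DKO.

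SETDB1 peaks were frequent in the narrow domains. A peak was present in both WT libraries in 196 of 338 (58.0%, exact binomial 95% interval 52.5% to 63.3%, counting error only), in 1 library in 51 and in neither in 91. It was lower for looser choices, at 30.8% of the 1709 domains narrow in replicate 1 alone, 35.7% of the 1091 narrow in replicate 2 alone and 35.5% of the 2380 of at most 16000 bp. The share was 17.1% for sgControl domains of 8 to 40 kb, 25.4% for those of 40 to 100 kb, 47.0% for those over 100 kb and 20.7% for all replicated domains. Wider domains have more room for a peak. Per length, the narrow domains held 116 shared peaks per Mb, against 7.16 and 8.52 in the classes of 40 to 100 and over 100 kb and 4.19 over the autosomes. Domains narrow in both SKO or in both DKO libraries held 55.6 and 71.8 per Mb. Of these, 30.5% and 37.2% had a peak in both WT libraries, so frequent peaks were not particular to the sgControl choice. Domains of 8 to 40 kb held 2358 in 214 Mb. In number this was 234 of the 12032 shared peaks, or 1.94%. These counts have no control group and were given no test.

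The peaks sat inside the narrow domain. The summit of the highest peak lay within it in 96.4% of 224 cases for SETDB1 replicate 1 and 98.2% of 219 cases for replicate 2, at a median distance of 1105 and 1112 bp from its centre. The median score of these highest peaks, the authors' value per peak, was 133.5 against 69 over all peaks in replicate 1, and 111 against 66 in replicate 2. Their median widths were 1425 against 684 bp and 1212 against 530 bp. The highest peak of each narrow domain is thus set against every peak of the library, inside or outside H3K9me3 domains.

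**Figure D3:**
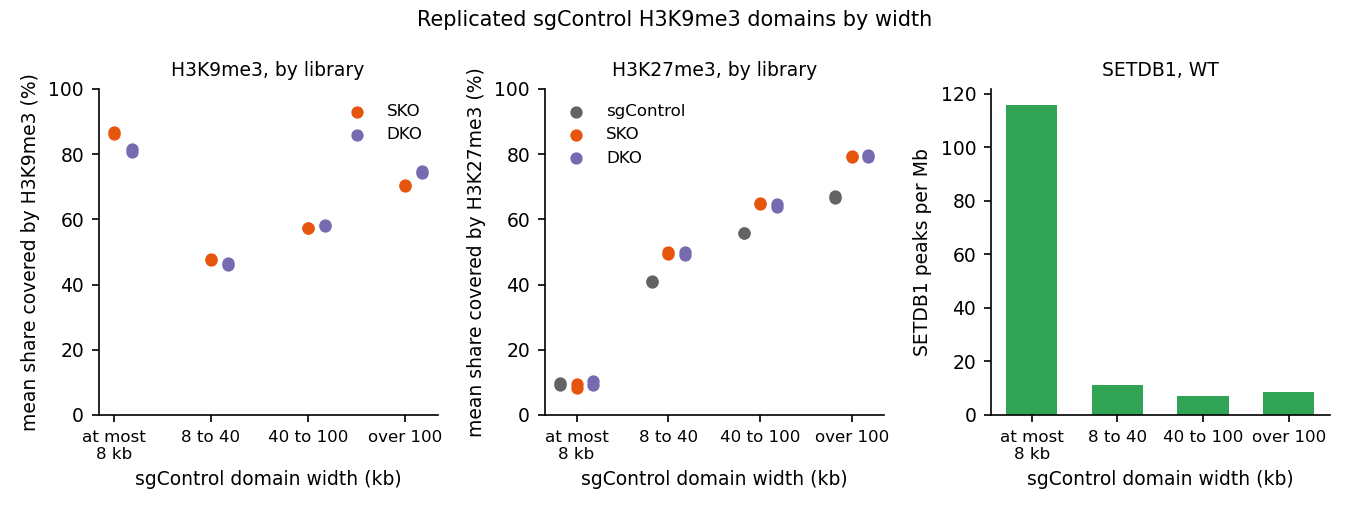
Replicated sgControl H3K9me3 domains by width class (horizontal axis, kb): mean share covered by H3K9me3 in each knockout library (left, percent), mean share covered by H3K27me3 in each library (middle, percent) and shared SETDB1 peaks per Mb (right). Narrow domains are highest on the left (80.7% to 86.7%), lowest in the middle (8.33% to 10.4%) and highest on the right (116 per Mb).

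Persistence differed with the SETDB1 peak, which the rule did not use. Of the 196 narrow domains with a peak in both WT libraries, 96.9% and 97.4% were present in SKO and 95.9% and 93.9% in DKO. With a peak in 1 library, the shares were 90.2% and 92.2% in SKO and 86.3% in both DKO libraries. Of the 91 without a peak, 74.7% and 68.1% were present in SKO and 67.0% and 60.4% in DKO. In all 4 knockout libraries the classes kept this order without overlap. Presence in all 4 libraries was seen for 183 of 196 (93.4%), 40 of 51 (78.4%) and 50 of 91 (54.9%), and absence from all 4 for 4, 3 and 17.

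Growth had the same order in each library when absent domains were counted as not grown. A domain over 8 kb overlapped 73.5% and 82.1% (SKO) and 68.9% and 78.6% (DKO) of those with a peak in both WT libraries. With a peak in 1 library the shares were 58.8% and 60.8% (SKO) and 51.0% and 54.9% (DKO). A domain over 8 kb overlapped 52.7% and 44.0% (SKO) and 40.7% in both DKO libraries of those without. Among those present alone, the class without a peak did not rank lowest in every library. In SKO replicate 1, 144 of 190, 30 of 46 and 48 of 68 present were over 8 kb. In DKO these were 135 of 188, 26 of 44 and 37 of 61, and 154 of 184, 28 of 44 and 37 of 55. SKO replicate 2, with 161 of 191, 31 of 47 and 40 of 62, kept the order. Among narrow domains present in all 4 knockout libraries, 67.0% had a SETDB1 peak in both libraries, and among the 24 absent from all 4, 16.7% (exact binomial 95% interval 4.74% to 37.4%).

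Other measures moved with the SETDB1 classes. The median distance to the next sgControl domain was 59.6 kb with a peak in both libraries, 32.8 kb with a peak in 1 and 12.8 kb with none. The median read density in sgControl replicate 1 was 30.2, 26.9 and 26.9 reads per kb, and the median width was 6399, 5599 and 6399 bp. The median score of the domains in the same library was 68.3, 50.8 and 52.1. The part of read density, domain score and spacing in the difference was not tested. SETDB1 was mapped in WT cells only, so whether the peaks were there in the knockouts was not measured.

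**Figure D4:**
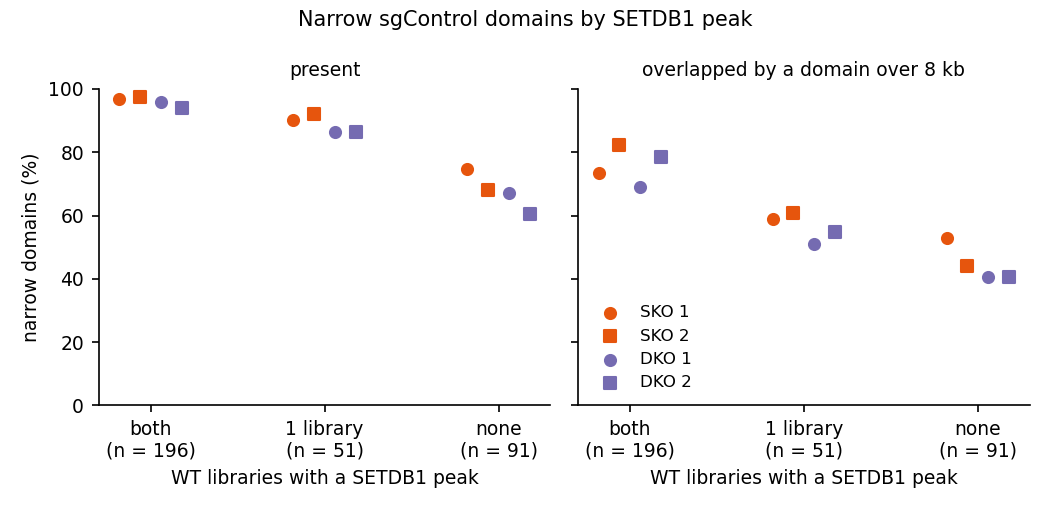
Share of narrow sgControl domains (vertical axis, percent) present (left) or overlapped by a domain over 8 kb (right) in each knockout H3K9me3 library, by the number of WT libraries with a SETDB1 peak (horizontal axis), 1 point per library. Presence is 93.9% to 97.4% with a peak in both libraries and 60.4% to 74.7% without.

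Several of the SETDB1-bound narrow domains lay inside known genes. They were taken after their values were seen, as the 8 in protein-coding genes with the highest mean SETDB1 score. The highest lay in PER3, a gene of the circadian clock, on chromosome 1 from 7788001 to 7795199, with scores of 862 and 483. Its widths were 7199 and 5599 bp in sgControl, 13599 and 14399 bp in SKO and 34399 and 10399 bp in DKO. In NRF1, which encodes a transcription factor of mitochondrial genes, the scores were 709 and 428. The widths went from 5599 and 3999 bp to 27199 bp in both SKO libraries and to 11999 and 25599 bp in DKO. In TMBIM4, a gene of an anti-apoptotic membrane protein, they went from 7999 and 6399 bp to 37599 and 44799 bp in SKO and 50399 and 41599 bp in DKO. In EXTL2, a gene of heparan sulfate synthesis, they went from 6399 bp in both to 16799 and 15199 bp, and to 13599 and 7199 bp. The narrow domain in MSI1, which encodes the RNA-binding protein Musashi-1, changed little, from 7199 bp in both to 8799 bp in both SKO libraries and 7199 and 11199 bp in DKO. The remaining 3 lay in MCF2L2, UNC79 and MAD1L1, a spindle checkpoint gene. Each of the 8 was present in all 4 knockout libraries.

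By gene position, just under 50% of the narrow domains lay in protein-coding genes. A protein-coding gene body overlapped 161 of 338 (47.6%, exact binomial 95% interval 42.2% to 53.1%), and 169 (50%) lay within 2 kb of one. Protein-coding gene bodies took 42.1% of the autosomal length, and overlapped 41.9%, 48.0% and 54.8% of domains of 8 to 40, 40 to 100 and over 100 kb. The midpoint lay in a gene body in 46.2% of narrow domains, against 36.6%, 36.9% and 33.1% in the wider classes. It did so in 53.0% and 53.4% of the domains narrow in both SKO or in both DKO libraries. Of the 177 narrow domains outside protein-coding genes, 53 lay more than 100 kb from one, and the median distance was 36.5 kb. Long non-coding RNA genes overlapped 62 narrow domains and pseudogenes 15.

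Gene starts were sparse in them. They held 3.96 gene starts per Mb, against 11.7 over the autosomes and 6.28 to 7.18 in the wider classes. Domains narrow in both SKO or in both DKO libraries held 5.65 and 3.35 per Mb. Among those present in all 4 knockout libraries, 49.8% lay in a gene body, and among the 24 absent from all 4, 33.3%, or 8. The NID1 domain, over the CG-rich promoter printed above, was 7199 and 6399 bp wide in sgControl, 24799 and 6399 bp in SKO and 2399 and 12799 bp in DKO, so its libraries overlapped. The domain over SMYD3 and its antisense transcript, by contrast, was 7999 and 6399 bp wide in sgControl, 47199 and 47999 bp in SKO and 45599 and 43999 bp in DKO.

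Few domains of any width touched the gene lists. Of 594 zinc finger genes, many of which encode the KRAB proteins that bring in SETDB1, 1 was touched, ZNF398 on chromosome 7. Its narrow domain was 3199 and 6399 bp wide in sgControl, 7999 and 11999 bp in SKO and 6399 and 7199 bp in DKO, with SETDB1 scores of 272 and 262. Zinc finger genes were touched by 1.18% of all replicated sgControl domains and by 0.296% of the narrow ones. No narrow domain touched any of 40 imprinted genes, 416 olfactory receptor genes, 54 clustered protocadherin genes, 36 interferon stimulated genes, 17 genes of nucleic acid sensing, 20 genes of the H3K9 methylation machinery or 18 housekeeping genes. These lists were touched by at most 0.610% of all replicated domains each, so a count of 0 among 338 is near the background. By chromosome, 59 narrow domains lay on chromosome 1 and 33 on chromosome 2, where they made up 2.77% and 1.45% of the replicated domains. The share was higher than on chromosome 1 on chromosomes 17 (3.10%) and 22 (25%, 2 of 8 replicated domains). On chromosomes 18 and 4 they made up 0.875% and 0.849%.

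H3K27me3, which the rule did not use, was rare over the narrow domains. A domain of that mark overlapped 33 and 35 of them in sgControl, 31 and 36 in SKO and 38 and 35 in DKO, or 9.17% to 11.2%. The means were 10.1% ± 0.418, 9.91% ± 1.05 and 10.8% ± 0.628 (SD, n = 2), and the libraries of the lines overlapped. The slope was 0.370 percentage points per SUV39H gene targeted (exact two-sided permutation test over 90 assignments, p = 0.444, smallest possible 0.0222). It ranged from 0.106 without DKO replicate 1 to 2.91 for the 1709 domains narrow in sgControl replicate 1 alone (exact permutation p = 0.0667), and turned to -6.25 with a width limit of 4000 bp. No H3K27me3 was called in any library over 286 narrow domains, and 19 carried it in all 6 libraries.

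The mean covered share by H3K27me3 over the 6 libraries was 9.41% in narrow domains, against 46.7%, 61.6% and 75.2% in the classes of 8 to 40, 40 to 100 and over 100 kb. Narrow domains were lower in 6 of 6 libraries in each comparison, by means of -37.3 ± 4.64, -52.2 ± 4.62 and -65.8 ± 6.60 points (SD, n = 6 libraries). In each of the 3 comparisons the exact two-sided sign-flip permutation test over libraries gave p = 0.0312, the smallest it can give, and 0.0312 after Benjamini-Hochberg adjustment. The libraries were read over the same fixed domains, so this p measures only how far the sign repeats between libraries. It does not measure the spread between domains, and nothing further is read from it.

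H3K27me3 was called higher in SKO over 9 narrow domains (2.66%), against 13.8% of all replicated domains, and lower over 10 (2.96%), against 3.67%. In DKO it was higher over 12 (3.55%), against 14%, and lower over 8 (2.37%), against 4.14%. The share called higher was below its background in both lines. A lower call asks for H3K27me3 in both sgControl libraries, so its base differs from the background. Only 31 narrow domains had it in both, and of these 10 were lower in SKO and 8 in DKO. Of all replicated domains, 51.8% and 51.5% overlapped it in the sgControl libraries. The comparisons of SKO and DKO use the same sgControl libraries. Without the 11 domains of at most 2 windows, the lower calls were 6 in SKO and 5 in DKO.

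The largest gains were at 4 loci that carried no H3K27me3 in either sgControl library. At the domain 125 kb from ADGRG6, an adhesion receptor gene, and at those 131 kb from FER, a tyrosine kinase gene, and 255 kb from PID1, all 4 knockout libraries were covered over 100%. At the domain 70.0 kb from PLK2, a polo-like kinase gene, coverage was 100% and 87.5% in SKO and 100% in both DKO libraries. H3K9me3 at these 4 went different ways. It grew to 56799 and 227999 bp in SKO and 168799 and 122399 bp in DKO near ADGRG6, from 6399 and 7199 bp. At most 8.45% of each of those wide domains lay outside every sgControl H3K9me3 domain. H3K9me3 was absent from all 4 knockout libraries near FER and from SKO alone near PID1. Near PLK2 it stayed between 5599 and 7999 bp in the knockouts, from 6399 and 5599 bp. The 3 small domains on chromosomes 12 and 17 with SETDB1 scores of 1000 were covered by H3K27me3 over 100% in both sgControl libraries. In the knockouts the 2 single-window ones were at 0% and the third at 50.0% in every library.

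**Figure D5:**
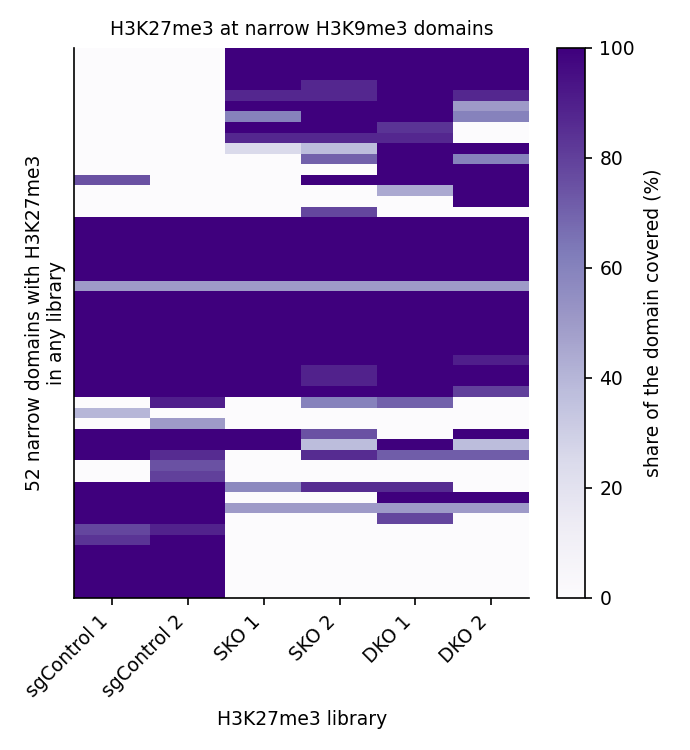
Share of each narrow domain covered by H3K27me3 (shade, percent) in each library (columns) for the 52 narrow domains (rows) with H3K27me3 in any library, ordered by the sgControl mean minus the knockout mean. Rows at the top were covered in the knockouts alone, those in the middle in all 6 libraries and those at the bottom in sgControl alone or mostly there.

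H3K27me3 also differed with SETDB1 and with persistence. The mean covered share in narrow domains with a SETDB1 peak in both libraries was 4.10% in sgControl, 0.920% in SKO and 1.75% in DKO. In those without a peak it was 19.1%, 24.8% and 27.6%. Narrow domains present in all 4 knockout H3K9me3 libraries had 5.09%, 4.43% and 5.13%, those present in 1 to 3 had 31.5%, 27.3% and 30.5%, and those absent from all 4 had 22.5%, 27.8% and 28.1%. Both marks and SETDB1 were mapped in separate libraries, and these differences were not tested.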

How the data were processed

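The authors deposited 1 list of broad domains per H3K9me3 or H3K27me3 library, made with epic2, per the file names, and SICER, Trim Galore 0.6.10, FastQC 0.12.1, deepTools 3.5.6 and the builds hg38 and dm6 stand in the submitters' processing notes. Drosophila chromatin was added as a spike-in, per the labels' protocols. No source used here names the aligner, the SETDB1 peak caller or the treatment of reads with several matches. Each domain has a read count of its own library, not normalised, and a score, both deposited by the authors, and the score only ranked domains within a list. Each SETDB1 peak has a score, a fold value and a −log10 p (none under 5.00), as deposited by the authors.

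Overlap, width, covered share and peak content were computed with Python 3.11.15, numpy 2.4.6, scipy 1.17.1 and pandas 2.3.3, and figures with matplotlib 3.10.9. Gene bodies (19126 autosomal protein-coding genes) and promoters came from RefSeq tables of GRCh38.p14. Calls over all 21486 replicated domains asked for non-overlapping libraries and a nearest pair at least 25 percentage points apart. The rule was tested on simulated data with known changes. limma 3.58.1 in R 4.3.3 on the covered share was an alternative. It called an adjusted p under 0.05 together with a difference of at least 25 points, a minimum added because without it simulated unchanged domains were called. Permutation tests were exact. The labels do not tie replicates to separate cultures, so p-values measure the spread between these libraries, which may be technical. Same-numbered replicates did not deviate together (correlations -0.00701 to 0.0395 over domains), so the numbers did not pair them.

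The domains and gene lists were chosen with earlier results of these data known. Domains were named by fixed rules, with the 6 highest by SETDB1 score among those narrow in all 4 knockout libraries, the 6 widest, the 6 absent with the highest score, up to 4 with opposite fates and the 4 largest H3K27me3 gains. Genes are those overlapped, or else the nearest. The 4 input samples were not used here, and no sequence of the domains themselves was read.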

Additional observations from a re-analysis of the deposited data

Results flagged for a closer look

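On chromosome X, which the choice of domains left out, 5 domains met the same width rule in sgControl. All 5 were present in both SKO libraries, 4 in DKO replicate 1 and 2 in DKO replicate 2, and 1 had a SETDB1 peak in both WT libraries.

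At 5 narrow domains (1.48%, against 2.85% of all replicated domains) both libraries of one knockout were wider than both sgControl libraries while both of the other were narrower or absent. The domain nearest PID1 was 19199 and 18399 bp wide in DKO, and absent from SKO. The opposite held for 4. The domain in DAB1 was 11999 and 10399 bp wide in SKO, that in ACYP2 7999 and 8799 bp and that nearest TMEM158 10399 and 8799 bp, each absent from DKO. The domain in PDE4D, which encodes a cyclic AMP phosphodiesterase, was 14399 and 13599 bp wide in SKO, 3999 bp in DKO replicate 1 and absent from DKO replicate 2. These differences were not tested by themselves, and with 2 libraries a line no exact test of them reaches 0.05.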

How the results depend on the processing

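Presence, growth, SETDB1 share, gene position, H3K27me3 overlap and the calls per domain were recomputed with 1 choice changed at a time. Values by SETDB1 class, distances between domains, the reverse lookup, the H3K27me3 comparison of width classes and the gene lists were not. A width limit of 4000 bp left 36 domains, of which a mean of 83.3% was present in SKO and 75% in DKO, 47.2% and 38.9% had grown in both libraries and 16.7% lay in a gene. DKO against SKO then gave 1 higher and 4 lower calls, H3K27me3 0 higher and 6 lower in SKO and 0 and 5 in DKO, and the H3K27me3 slope turned to -6.25 points (exact permutation p = 0.133). A limit of 16000 bp gave 2380 domains, with 75.9% and 71.5% present, 33.5% and 28.7% grown, 35.5% with SETDB1, 47 higher and 160 lower calls, a slope of 2.41 (exact permutation p = 0.0667), and H3K27me3 176 higher and 83 lower in SKO and 190 and 89 in DKO. The upper 50% of domains by score left 36, with 94.4% and 90.3% present, 66.7% and 58.3% grown, 0 higher and 2 lower calls, H3K27me3 1 higher and 3 lower in both lines, and a slope of -2.78 (exact permutation p = 0.133). Counting as present only where at least 50% was covered gave 88.0% and 82.7%, and the upper 50% of SETDB1 peaks gave 46.2%. A difference of 10 points gave 4 higher calls for DKO against SKO. Without the domains of at most 2 windows, H3K27me3 was lower over 6 (SKO) and 5 (DKO).

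limma gave 6 lower calls for DKO against SKO (1.78%, against 2.08% of all replicated domains), and 7 with the knockout libraries alone (2.07% against 1.58%). For H3K27me3 it gave 5 higher in SKO (1.48% against 11.5%) and 7 in DKO (2.07% against 11.7%). With the replicate number as a block it gave 1 higher (0.296% against 0.61%) and 5 lower (1.48% against 0.796%) for DKO against SKO. With the knockout libraries alone the block gave 6 lower (1.78% against 0.801%). For H3K27me3 the block again gave 5 higher in SKO (1.48% against 9.56%) and 7 in DKO (2.07% against 9.79%). Pairing by number left the difference in presence at -4.14 points (exact sign-flip permutation p = 0.5).

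Leaving out a library in turn, and an sgControl library by using the narrow domains of the other alone (1709 or 1091 domains; this and the step without the smallest domains were chosen after seeing the data), gave 72.1% to 89.9% present and 51.1% to 68.6% grown in SKO, 66.7% to 86.7% and 43.9% to 64.8% in DKO, 30.8% to 66.3% with SETDB1 and 44.3% to 44.5% in a gene. With the 338 domains kept, DKO against SKO ranged from 3 to 8 higher and 19 to 30 lower calls. H3K27me3 then ranged from 9 to 13 higher and 11 to 14 lower in SKO, and from 12 to 14 and 9 to 11 in DKO. The larger set of 1709 domains gave the most calls, 36 higher and 117 lower for DKO against SKO. For H3K27me3 it gave 138 higher and 46 lower in SKO and 141 and 43 in DKO. No share over all replicated domains was computed for these settings. The H3K27me3 slope ranged from 0.106 to 2.91, and the difference in presence from -5.62 to -2.66 points. Fewer or more domains enter under the width, score and library settings, and the cause of the other shifts was not tested. Replicate 2 as the source of the domains and leaving out chromosome 7 moved none of these values beyond the limits used.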
